A study of Mus musculus with 8 samples.

Results

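Thymic stromal lymphopoietin (TSLP) and granulocyte-macrophage colony-stimulating factor (GM-CSF) act through cytokine receptors built from a ligand-specific chain and a shared signaling chain. The 9 genes described here, of 21938 protein-coding genes annotated, are the ligands Tslp and Csf2, the ligand-specific chains Crlf2, Il7r, Csf2ra, Il3ra and Il5ra, and the β chains Csf2rb and Csf2rb2. They were chosen by name, and peaks of acetylation at lysine 27 of histone H3 (H3K27ac), which marks promoters and enhancers in use, were collected in each gene body and 50 kb either side of it. In short, the promoters of both β chains carried broad peaks in both control tumors and narrow or no peaks in both test tumors. Crlf2, Csf2ra and Il3ra carried a peak at their start or early gene body in all 4 tumors. Tslp and Il5ra carried none of their own in any tumor.

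The peaks came from 4 breast tumors, each from a separate mouse on the Balb/c background. Both groups carried the PyMT oncogene, driven in the mammary epithelium by the MMTV promoter, together with Rag1KO, so that the hosts had no T or B cells of their own, and CD4+ T cells had been injected into all of them at the age of 4 weeks. Control tumors (n = 2) had the genotype PyMT;Rag1KO. Test tumors (n = 2) had the genotype K14-TSLPtg;PyMT;Rag1KO, in which the keratin 14 promoter drives TSLP in epithelium, and the sample titles call them cysts where the controls are called tumors. The lists held 69861 and 67850 peaks in control 1 and control 2, and 65763 and 59762 in test 1 and test 2. Their sequencing depth is unknown, and the lists give positions without heights, so every value below is a width, a count or a coverage, the percent of bases of a window that lay in peaks. Over 8 markers of luminal epithelium, the mean coverage within 10 kb of the start was 42.3% and 37.8% in the controls. It was 40.5% in both test tumors. All of these markers but Elf5 had coverage in every tumor, and Elf5 had none in control 2 and test 2. Whole tumor tissue was used, so fewer cells of a type and less acetylation per cell cannot be told apart.

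TSLP is an epithelial cytokine that binds a pair of chains, Crlf2 and the interleukin-7 receptor α chain Il7r, and is known for driving type 2 immunity at barrier surfaces. GM-CSF, interleukin-3 and interleukin-5 bind Csf2ra, Il3ra and Il5ra in turn, and all pass their signal through the common β chain Csf2rb, which activates the kinase Jak2 and the transcription factor Stat5. Mice have a second β chain, Csf2rb2, that serves interleukin-3 alone. The β chains are best known from myeloid cells, mast cells and eosinophils, and the study asked whether tumor cells respond through the same receptors. It reported Csf2rb, Il3ra and Il5ra protein on the surface of PyMT tumor cells, a measure unlike the peaks here. It also reported that tumors lacking both β chains were not suppressed by the transferred T cells.

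With 2 tumors in each group, an exact permutation test (two-sided) of a single value has 3 distinct splits and cannot go below p = 0.333. That was the p of every member whose groups did not overlap, so no difference here passes a test. Values are given tumor by tumor, with the order of the groups. The share of all genes with the same order is given where each window is first counted.

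Tslp itself lay outside acetylated chromatin. No peak overlapped its gene body or the 10 kb either side of its start in either group. The insertion site of the K14-TSLPtg transgene is not given in the sources used here, and its chromatin was not analysed. The single peak in the Tslp window lay 22.0 kb after the start, at the divergent promoter of Wdr36 and the long noncoding RNA 4930455D15Rik. It measured 547 bp in control 1, 697 bp in control 2, 937 bp in test 1 and 1103 bp in test 2. The test tumors were thus both above the controls at this neighbor, and window coverage of Tslp, which it makes up in full, was 0.596% ± 0.102 (SD, n = 2) in the controls against 0.977% ± 0.112 (SD, n = 2).

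Csf2, which encodes GM-CSF, had no promoter peak within 1 kb of its start in any tumor. A peak inside the gene was present in 3 of the 4 tumors. It measured 584 bp in control 2, 219 bp in test 1 and 585 bp in test 2, and control 1 had none, so the groups overlapped. The widest of these, in test 2, ran from 1638 to 2222 bases after the start. The 219 bases shared by the 3 peaks lie at chr11:54247667-54247885 (mm10) on the minus strand, in the last intron and the beginning of the last exon. They are shown as the part of the GM-CSF gene that the peaks of 3 tumors had in common, with the 29 coding bases in capitals.
Csf2 shared stretch: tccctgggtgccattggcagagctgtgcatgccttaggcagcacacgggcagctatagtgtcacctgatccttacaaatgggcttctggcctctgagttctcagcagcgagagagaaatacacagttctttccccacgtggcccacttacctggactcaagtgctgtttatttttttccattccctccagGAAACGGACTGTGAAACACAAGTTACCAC
The antisense gene Gm12223 overlaps this stretch, and a peak does not tell the strands apart. A second site about 34.9 kb beyond the Csf2 start, near the noncoding RNA 4933405E24Rik, was acetylated in all 4 tumors. It covered 703 and 851 bp in the controls and 671 and 840 bp in the test tumors. The neighboring ligand gene Il3 had no coverage within 10 kb of its start in any tumor, and neither did Il5.

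Crlf2, the TSLP-specific chain, had the highest coverage of the 9 genes within 10 kb of the start. Its mean over the 4 tumors was 13.9% ± 1.95 (SD, n = 4), at the 76.9th percentile of all genes. The peak spanned the start in all 4 tumors and ran into the gene. It was 2988 bp wide in control 1, 2469 bp in control 2 and 2424 bp in test 1, and in test 2 it was split into pieces of 2157 and 1061 bp. Coverage within 1 kb of the start was 82.7% and 51.8% in the controls against 51.4% and 78.2% in the test tumors, so the groups overlapped and 1 tumor of each was high. The RefSeq promoter of Crlf2 (GRCm38.p6, chr5:109558994-109559243, minus strand) is shown because all of its 250 bases lay in a peak in control 1 and test 2, and 35 and 28 of them in control 2 and test 1. Capitals mark the 6 bases of a RUNX match (TGTGGT, here on the opposite strand), which 14.2% of 27025 RefSeq promoters of this length hold.
Crlf2 promoter: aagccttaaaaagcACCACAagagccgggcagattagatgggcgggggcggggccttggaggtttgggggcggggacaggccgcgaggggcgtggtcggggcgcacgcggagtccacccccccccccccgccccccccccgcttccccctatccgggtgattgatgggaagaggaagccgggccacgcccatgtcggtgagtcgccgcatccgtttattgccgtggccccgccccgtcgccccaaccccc

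Il7r, the chain that TSLP shares with interleukin-7, had a single small peak and none in test 2. It measured 355 bp in control 1, 263 bp in control 2 and 250 bp in test 1, and lay between 470 and 1037 bases after the annotated start, mostly in the intron that follows the first exon of the main transcript. The controls were both above the test tumors in width, with only a small gap between control 2 and test 1. All 3 peaks shared the 40 bases at chr15:9529362-9529401 (mm10, minus strand). They are printed in lower case since no searched motif matched, and they are shown as the stretch of this receptor common to the peaks of 3 tumors.
Il7r shared stretch: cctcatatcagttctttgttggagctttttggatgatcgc
Within 1 kb of the start the coverage was 17.7% and 11.3% in the controls and 12.5% and 0% in the test tumors, where the groups overlapped. The absence in test 2 stood beside the lowest number of peaks of any list.

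Csf2ra, the α chain of the GM-CSF receptor, varied little between the tumors. Its peak began between 616 and 749 bases after the start in each tumor and measured 2077 and 2045 bp in the controls and 2007 and 2053 bp in the test tumors. Coverage within 10 kb of the start was 10.4% and 10.2% against 11.5% and 10.3%, so the groups overlapped. Test 1 had an added peak of 299 bp inside the gene. A second region 11.7 kb beyond the start, between genes, was also acetylated in all 4 tumors, over 1449 and 1244 bp in the controls and 1777 and 1277 bp in the test tumors. In the whole window both test tumors lay above both controls, at 4.27% and 3.88% against 3.62% and 3.45%. Within 1 kb of the start, a window chosen after the values were seen, the groups overlapped. There the difference of the means was -1.87 percentage points, and it was 1.10 without test 1 and -0.0750 without control 1.

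Il3ra, the α chain of the interleukin-3 receptor, had a promoter peak in all 4 tumors. It measured 579 bp in control 1, 1040 bp in control 2, 550 bp in test 1 and 562 bp in test 2. Control 2 stood apart and the other widths lay close together, so both controls exceeded both test tumors, control 1 only narrowly. Without control 2 the difference in coverage within 1 kb of the start went from -12.7 to -1.15 percentage points. All 250 bases before the RefSeq start lay in a peak in every tumor and held 1 PU.1 core match (GGAAGT), a motif of 20.0% of promoters. The antisense gene Gm48860 overlaps the Il3ra start.

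Il5ra, the α chain of the interleukin-5 receptor, had no peak in its gene body of 38681 bp or within 10 kb of its start in any tumor. The Il5ra window held the promoter peak of its neighbor Trnt1, with 1338 and 1667 bp in the controls and 1375 and 1961 bp in the test tumors, and a peak of 959 bp in Crbn in control 2. Window coverage was 0.965% and 1.89% against 0.991% and 1.41%, and all of it belonged to these neighbors. The Il5ra promoter (GRCm38.p6, chr6:106749038-106749287, minus strand) is shown for a gene with no peak at its start or in its body in any tumor. Its capitals mark an AP-1 match (TGANTCA) and, after it, a GATA match (AGATAA), which 6.87% and 10.3% of promoters hold on either strand.
Il5ra promoter: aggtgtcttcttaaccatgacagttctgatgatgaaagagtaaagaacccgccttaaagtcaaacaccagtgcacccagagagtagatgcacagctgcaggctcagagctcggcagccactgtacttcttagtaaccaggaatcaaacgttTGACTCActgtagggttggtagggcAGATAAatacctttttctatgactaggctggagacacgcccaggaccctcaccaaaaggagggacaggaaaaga

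**Figure D1:**
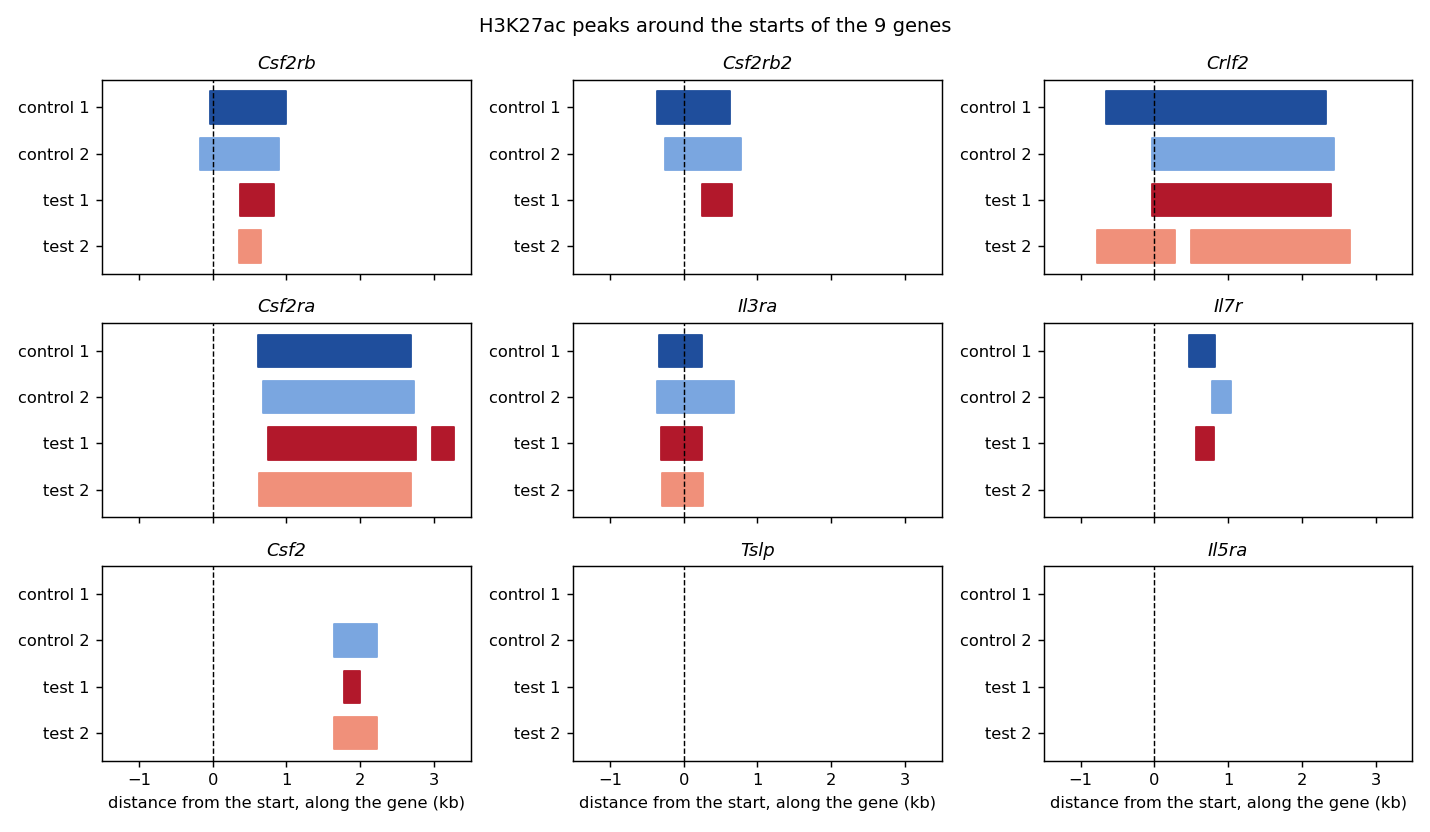
H3K27ac peaks (bars) in each of the 4 tumors (rows) around the start of each of the 9 genes, plotted as distance in kb along the gene, with the start at the dashed line. At Csf2rb and Csf2rb2 the bars of both controls cross the start and those of the test tumors do not, while the bars at Crlf2, Csf2ra and Il3ra are present in all 4 tumors.

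Within 1 kb of the start, the β chains had the largest differences between the groups among the 9 genes. Csf2rb, the common β chain of the GM-CSF, interleukin-3 and interleukin-5 receptors, had a promoter peak of 1036 bp in control 1 and 1083 bp in control 2, and of 465 bp in test 1 and 309 bp in test 2. Both control peaks crossed the start, from -36 to 999 and from -177 to 905 bases. Both test peaks began after it, from 366 to 830 and from 351 to 659 bases. Coverage within 1 kb of the start was 52.9% ± 1.66 (SD, n = 2) in the controls against 19.3% ± 5.51 (SD, n = 2) with the transgene, a difference of -33.6 percentage points. Leaving out each tumor in turn left the difference between -37.5 and -29.7 percentage points. Taking the same number of peaks, the widest, from each tumor removed none of the peaks here. The difference therefore stayed at -33.6 percentage points, and this setting is no check on sequencing depth. The difference was -52.9 percentage points with peaks of at least 1 kb alone, which leaves out both test peaks, and -13.4 within 2.5 kb of the start.

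Csf2rb2, the interleukin-3-specific β chain, showed the same order. Its promoter peak measured 997 bp in control 1, 1035 bp in control 2 and 399 bp in test 1, and test 2 had none. The control peaks ran from -362 to 634 and from -250 to 784 bases around the start, and the peak of test 1 ran from 252 to 650 bases after it. Coverage within 1 kb of the start was 50.8% ± 1.34 (SD, n = 2) against 9.97% ± 14.1 (SD, n = 2), a difference of -40.8 percentage points. It lay between -50.8 and -30.8 percentage points when each tumor was left out in turn. It was -16.3 percentage points within 2.5 kb of the start and -25.9 with peaks of at least 1 kb alone, where the peak of control 1 drops out as well and the groups are no longer apart. Control 2 had a further peak of 250 bp inside the gene.

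The sequences show where the peaks of the groups parted. The Csf2rb2 promoter (GRCm38.p6, chr15:78305722-78305971, minus strand) lay in a peak over all 250 bases in both controls and over 0 bases in both test tumors. Its capitals mark a GAS match (TTCNNNGAA), the consensus of Stat factors, from -15 to -7 bases before the start, which 7.18% of promoters hold.
Csf2rb2 promoter: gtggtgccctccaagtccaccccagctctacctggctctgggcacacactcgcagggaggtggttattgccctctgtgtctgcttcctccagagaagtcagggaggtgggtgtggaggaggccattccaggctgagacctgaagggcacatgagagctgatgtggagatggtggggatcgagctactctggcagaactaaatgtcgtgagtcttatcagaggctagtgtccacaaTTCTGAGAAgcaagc
The 294 bases in the peaks of all 4 tumors at Csf2rb lie in its gene body, in no annotated exon, at chr15:78326118-78326411 (mm10, plus strand). All but the first 5 of them aligned to 297 bases of Csf2rb2 at chr15:78305261-78305557 (mm10, minus strand) with 89.6% identity, and those lay in a peak over 297 bases in both controls, over 209 in test 1 and over 0 in test 2. Both are shown because they are the matching parts of the paralogs where acetylation extended furthest across the tumors. Capitals mark the 23 bases of Csf2rb and the 31 of Csf2rb2 without an identical partner within the alignment. None of the searched motifs matched in either stretch.
Csf2rb shared stretch: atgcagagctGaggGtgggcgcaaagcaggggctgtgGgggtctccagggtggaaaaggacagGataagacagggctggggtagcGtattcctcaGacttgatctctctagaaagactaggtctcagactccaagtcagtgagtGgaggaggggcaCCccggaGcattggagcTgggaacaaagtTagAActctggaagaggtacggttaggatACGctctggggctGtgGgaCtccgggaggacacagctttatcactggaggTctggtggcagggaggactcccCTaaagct
Csf2rb2 aligned stretch: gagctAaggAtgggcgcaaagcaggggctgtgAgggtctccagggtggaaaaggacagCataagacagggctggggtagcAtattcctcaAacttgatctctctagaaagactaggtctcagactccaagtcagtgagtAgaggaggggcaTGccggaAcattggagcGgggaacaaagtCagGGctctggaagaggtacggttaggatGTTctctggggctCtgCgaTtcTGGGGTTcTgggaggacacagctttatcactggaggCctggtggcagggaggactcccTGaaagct
Over the whole Csf2rb locus, 80.6% of bases aligned to Csf2rb2 at a mean identity of 89.6%. Reads from bases that are identical in both genes could have been placed at either, and how such reads were treated is not given in the sources used here.

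**Figure D2:**
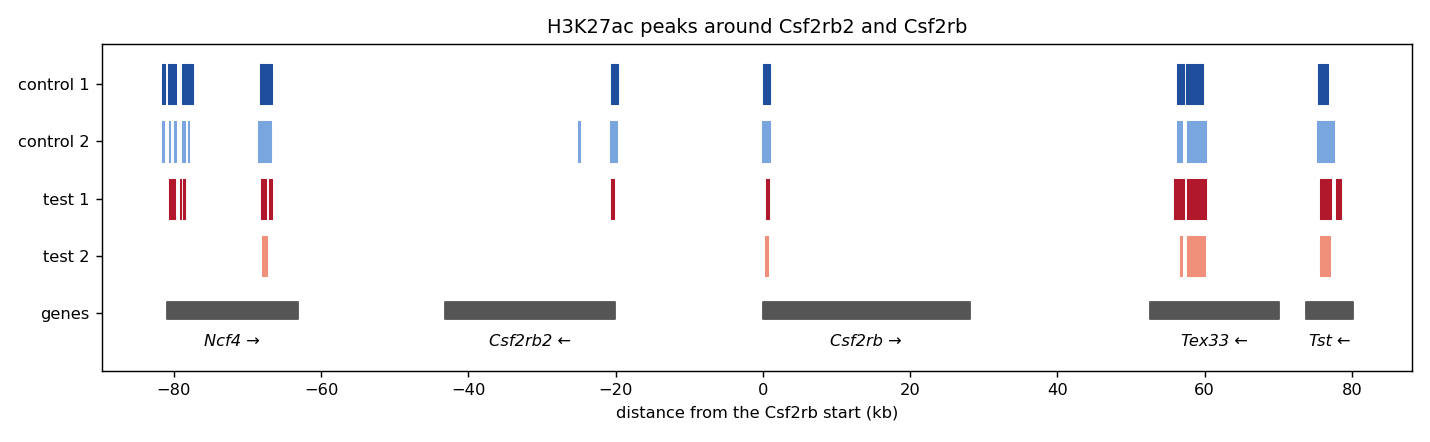
H3K27ac peaks (bars) in the 4 tumors around the neighboring genes Csf2rb2 and Csf2rb, plotted as distance in kb from the Csf2rb start, with genes as gray bars and arrows for their direction. The peaks at both β chain starts are wider in the controls, and both regions in Tex33 are present in all 4 tumors.

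The starts of the 2 genes lie 20.0 kb apart, and their windows share 80.0 kb, so window coverage of the one includes the promoter of the other. On the Csf2rb2 side lies Ncf4, which encodes a subunit of the phagocyte NADPH oxidase. Coverage within 1 kb of its start was 65.6% and 29.0% in the controls and 23.2% and 0% in the test tumors. Its promoter and body held 5 regions. One at the promoter, of 482 bp, was present in both controls, with 480 and 322 bp, and in neither test tumor. The other promoter region covered 1050 and 506 bp in the controls and 622 and 0 bp in the test tumors, so that the groups overlapped there. Of the 3 in the gene body, one of 189 bp was present in test 1 alone, and one covered 1493 and 650 bp in the controls and 254 and 0 bp in the test tumors. The last was present in all 4 tumors, over 1597 and 1826 bp in the controls and 1240 and 644 bp in the test tumors. On the Csf2rb side lies Tex33, whose gene body held a region of 2350 and 2559 bp in the controls and 2566 and 2418 bp in the test tumors, and another of 974 and 685 bp against 1399 and 274 bp. The groups overlapped at both Tex33 regions. Farther out, the Csf2rb window held a region in Tst of 1248 and 2247 bp in the controls and 1477 and 1417 bp in the test tumors. The groups overlapped there too. Another region in Tst, of 716 bp and partly inside the window, was present in test 1 alone. At Ncf4 the controls were above both test tumors at 3 of the 5 regions and within 1 kb of the start. Window coverage was 5.40% and 4.60% against 2.57% and 0.773% for Csf2rb2, and 5.16% and 6.14% against 5.15% and 3.45% for Csf2rb, where control 1 and test 1 were nearly level.

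Over the 9 windows, 26 distinct regions were found when overlapping peaks of the tumors were joined, of which 12 (46.2%) were present in all 4 tumors, against 38.1% of the 91238 regions genome-wide. In the windows, 1 region (3.85%) was present in both controls and no test tumor, the one at Ncf4, beside 3.41% genome-wide. Regions in both test tumors and no control numbered 0, beside 1.47% genome-wide. Of the 26, 9 regions lay in a promoter or body of the 9 genes and 17 elsewhere.

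Window coverage was higher in both controls for 4 genes, Il7r, Csf2rb, Csf2rb2 and Il3ra, an order found in 13.0% of the 18693 genes with any coverage. It was higher in both test tumors for 2 genes, Tslp and Csf2ra, an order of 17.3% of genes. Crlf2, Csf2 and Il5ra overlapped. The median difference over the 9 genes was -0.148 percentage points, beside 0.0192 over all genes. It lay between -0.271 and -0.0151 when each tumor was left out in turn. Over the 4 pairs of a test and a control tumor it ran from -0.447 to 0.221, so its sign was not stable. Within 1 kb of the start, 6 of the 9 genes had coverage in some tumor and 4 of them in all 4 tumors, where 57.2% and 49.6% of all genes did. Both controls exceeded both test tumors for 3 of the 6 (Csf2rb, Csf2rb2 and Il3ra), beside 9.60% of 12546 genes, and both test tumors exceeded both controls for 0 of the 6, beside 20.9% of genes. The median difference was -10.5 percentage points over the 6 genes and 1.07 over all genes. The count of genes higher in both controls within 1 kb of the start was 1 with peaks of at least 1 kb alone. It was 6 without control 2 and 5 without test 2. An order is easier to meet with a tumor left out, and the share of all genes was not counted there. A promoter peak in both controls and no test tumor was found for 0 members (0.933% of genes), and the reverse for 0 members (0.526% of genes). Without test 1, again with fewer tumors to compare, the first count was 2, Il7r and Csf2rb2.

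**Figure D3:**
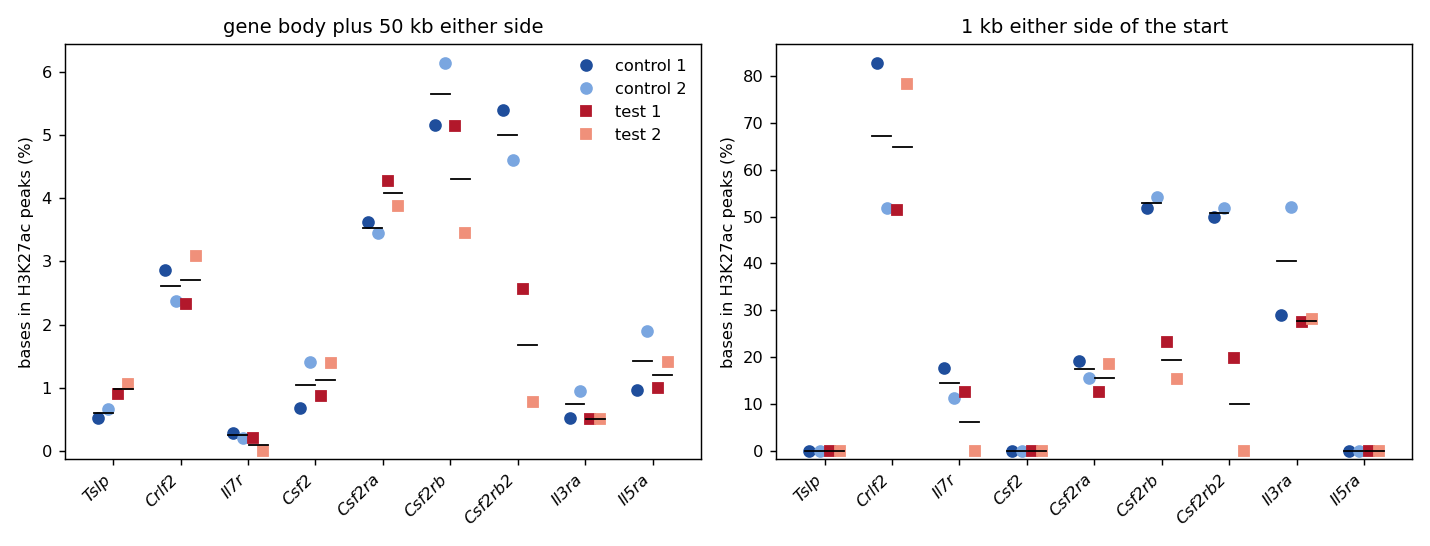
Percent of bases in H3K27ac peaks for each of the 9 genes, in the gene body plus 50 kb either side (left) and within 1 kb either side of the start (right), with circles for control tumors, squares for test tumors and black lines for the mean of each group. On the right, both controls sit near 50% for Csf2rb and Csf2rb2 and both test tumors below 25%.

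Ordered by mean coverage within 10 kb of the start, Crlf2 at 13.9% and Csf2ra at 10.6% stood above the rest in all 4 tumors, and each was separated from the next gene in every tumor. Csf2rb (3.62% ± 1.97), Il3ra (3.41% ± 1.19) and Csf2rb2 (3.35% ± 2.90) followed (SD, n = 4) and did not differ beyond their spread over all 4 tumors. By the means of the groups their order was opposite. In the controls the means were 5.70% for Csf2rb2, 5.30% for Csf2rb and 4.05% for Il3ra. In control 1 alone, however, Csf2rb (5.18%) lay above Csf2rb2 (4.98%). In the test tumors the means were 2.78% for Il3ra, 1.93% for Csf2rb and 0.997% for Csf2rb2. Csf2 at 1.73% and Il7r at 1.08% came next and overlapped as well, and Tslp and Il5ra were at 0%. By the 4 coverage values within 10 kb of the start, the genes on other chromosomes closest to Crlf2 were Smad1 and Gpbp1, with summed absolute differences of 2.11 and 2.18 percentage points. Closest to Csf2ra were Brd7 and Usf1, at 0.925 and 0.975 percentage points. Closest to Csf2rb were Rubcnl and Gp9, at 1.54 and 1.66 percentage points.

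Base composition was compared as a description over few promoters. The RefSeq promoter table used here matched 7 of the 9 genes, all but Tslp and Csf2rb. Of these, Crlf2, Csf2ra and Il3ra had a peak within 1 kb of the start in all 4 tumors. In the 250 bases before the start, the G and C content was 71.6% for Crlf2, 64.8% for Csf2ra and 72.4% for Il3ra. It was 56.4% for Csf2rb2, 55.2% for Csf2, 48.0% for Il5ra and 44.0% for Il7r, beside a median of 52.0% over all promoters. The ratio of observed to expected CpG was 0.750, 0.678 and 0.843 for the same genes. For Csf2rb2, Csf2, Il5ra and Il7r it was 0.154, 0.106, 0.278 and 0.0844, and the median promoter had 0.378. Those 4 genes, which lacked such a peak in 1 tumor or more, all lay below the median in CpG. At Csf2ra, however, none of the 250 bases lay in a peak, since its peak began inside the gene.

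The rest of the pathway did not move one way. Of 32 further genes in a list of ligands, kinases, adaptors, inhibitors and targets, 30 had coverage within 10 kb of the start. Both controls exceeded both test tumors for 7 of them, beside 11.6% of 14792 genes, and both test tumors exceeded both controls for 5, beside 20.9%. In the same window and by the same order, the counts for the 9 receptor and ligand genes were 4 and 0 of the 7 with coverage. The median difference over the 30 genes was -0.127 percentage points, beside 0.277 over all genes. Among the ligands, Il7 was higher in both test tumors, at 6.19% and 6.57% against 5.11% and 5.27%. Jak3, the kinase of the common γ chain, was lower in both test tumors, with coverage of 12.9% and 8.32% against 15.0% and 14.3%. The groups overlapped at Jak2 and at all 4 Stat genes of the list.

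For the counts by role that follow, the same background of 20.9% of genes higher in both test tumors and 11.6% higher in both controls applies. Among the adaptors, 3 of 6 were higher in both test tumors. Coverage at Grb2, which links receptors to Ras, was 16.6% and 19.8% against 14.1% and 14.8% in the controls, and at Shc1 it was 40.2% and 37.5% against 37.2% and 35.4%. Among the inhibitors, 2 of 7 were lower in both test tumors. Socs3, a feedback inhibitor of cytokine signaling, had 65.4% in test 1 and 47.2% in test 2 against 67.6% and 68.1% in the controls, so most of that difference came from test 2. Socs1, another such inhibitor, had 12.1% and 9.77% against 13.4% and 18.5%. Among the targets, 4 of 6 were lower in both test tumors, with Osm, which encodes the cytokine oncostatin M, at 2.25% and 1.67% against 8.26% and 5.52%. Mcl1, a survival factor of the Bcl2 family, had 89.0% and 88.1% against 93.0% and 92.0%. The kinase gene Pim1 had 38.1% and 36.0% against 39.4% and 42.0%.

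**Figure D4:**
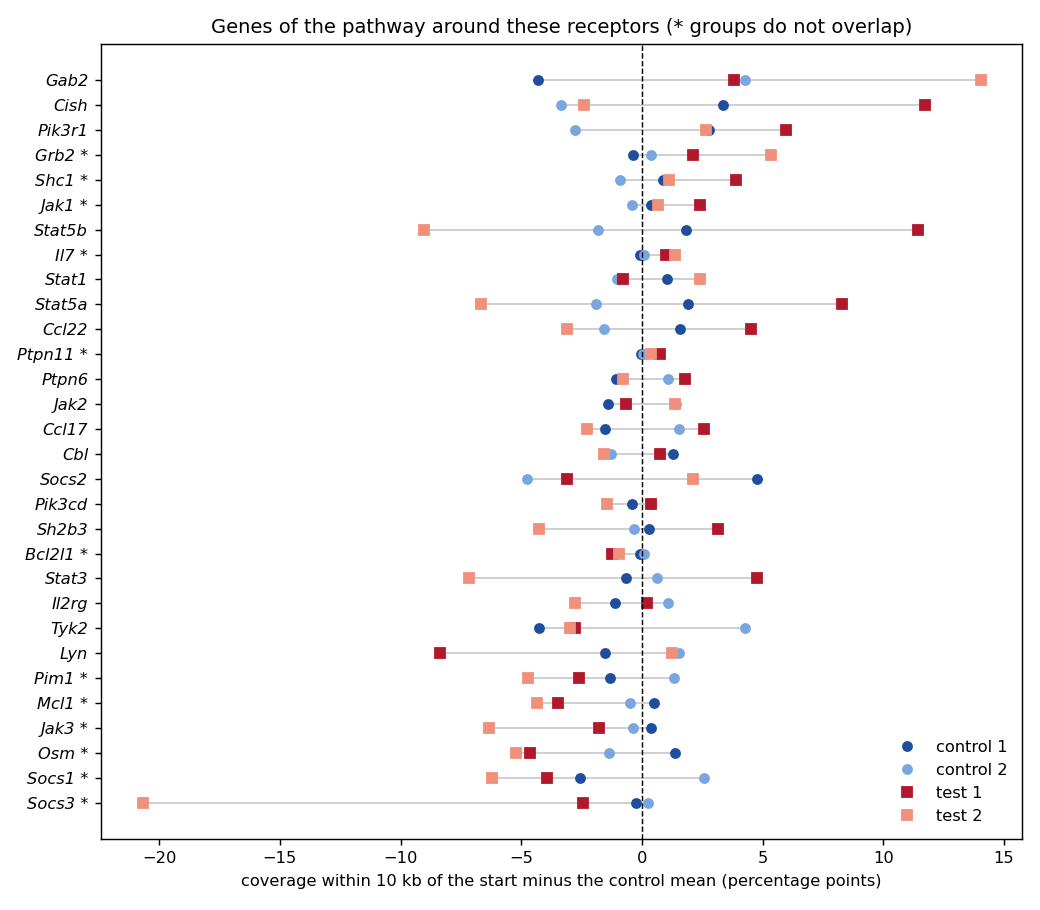
Coverage within 10 kb of the start of 30 further pathway genes in each tumor, plotted as the difference from the mean of the controls in percentage points, with circles for control and squares for test tumors, and stars for the 12 genes whose groups do not overlap. Osm, Socs1 and Jak3 lie to the left in both test tumors and Grb2 to the right, while test 2 stands far from the other tumors at Socs3.

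The pan-leukocyte, T cell, dendritic, fibroblast and endothelial marker lists had lower summed coverage in both test tumors than in both controls, the dendritic list through a single gene, and the sums of the macrophage list overlapped. Over the 4 pan-leukocyte markers, all with coverage, the summed coverage within 10 kb of the start was 60.2 to 70.4 percentage points in the controls and 12.8 to 41.4 in the test tumors, and 3 of the 4 were higher in both controls, an order of 11.6% of all genes in this window (20.9% for the reverse). Over the 10 markers of macrophages and monocytes it was 185 to 211 in the controls and 133 to 196 in the test tumors, with 3 genes higher in both controls (Tyrobp, Spi1 and Itgam). Spi1 encodes PU.1, a transcription factor of myeloid cells, and had 32.8% and 27.6% against 23.8% and 6.45%. Adgre1 was at 0 in all 4 tumors.

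Over the 9 T cell markers the sum was 24.8 to 27.4 in the controls and no more than 9.47 in the test tumors (means per gene of 1.05% and 0.278%), with 3 genes higher in both controls, Cd4 covered in control 2 alone and Themis at 0 throughout. Cd3e was higher in both test tumors, at 1.27% and 1.01% against 0% and 0.790%. Bcl11b made up most of the T cell sum in both controls and test 1, and without it, left out after the values were seen, the sums were 5.30 and 11.4 in the controls, 1.27 in test 1 and unchanged in test 2. Over the 7 dendritic cell markers it was 10.8 to 20.4 against 3.27 to 8.20, with Itgax as the 1 gene higher in both controls and Flt3 and Zbtb46 at 0. Without Itgax, left out after the values were seen, the dendritic sums overlapped, at 7.07 and 4.40 against 5.13 and 3.27. Of the 9 eosinophil, basophil and mast cell markers 8 were at 0 in all tumors, including Siglecf, Epx, Mcpt8 and Cpa3, and only Kit had coverage, with sums of 16.0 to 22.4 against 22.0 to 22.5. Of the 5 B cell markers 4 were at 0, with sums of 25.2 to 28.4 against 27.5 to 29.0, all within 10 kb of the Cd79a start. Within 1 kb of that start Cd79a had no coverage in any tumor. Over the 6 fibroblast markers the sum was 27.9 to 30.9 against 6.46 to 18.2, and over the 6 endothelial markers 21.4 to 21.9 against 5.52 to 8.83. Lum and Tie1 were at 0 throughout. The luminal sums, 302 to 338 against 324 in both test tumors, and the basal sums, 11.4 to 30.4 against 12.3 to 36.7 with Trp63 at 0, overlapped. The part of these cell types in the acetylation of Csf2rb and Csf2rb2 was not tested.

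**Figure D5:**
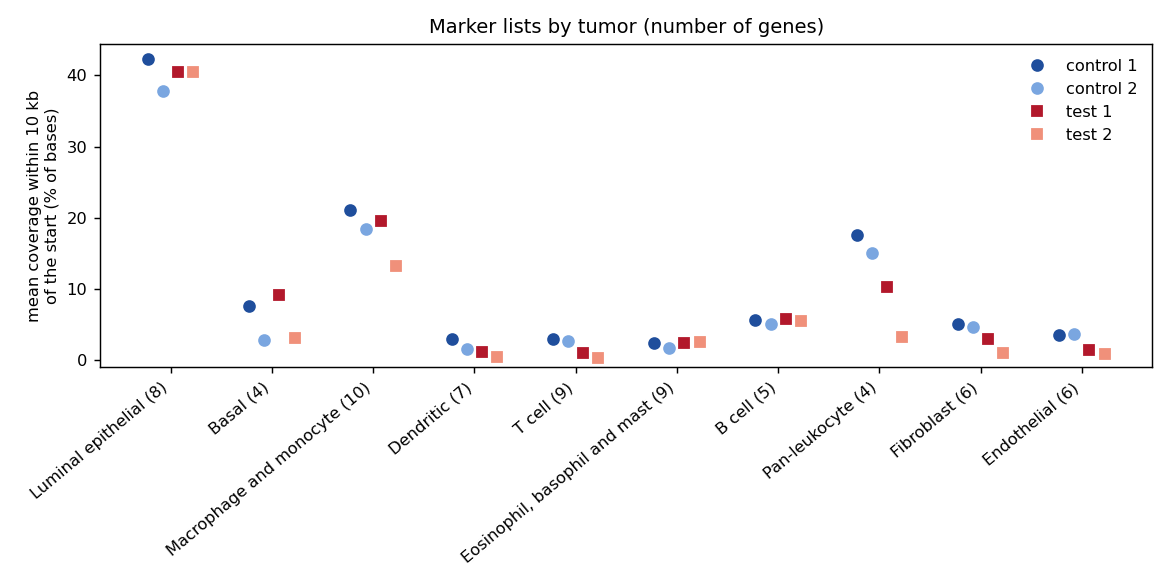
Mean coverage within 10 kb of the start over each marker list (number of genes in brackets), in percent of bases, with circles for control and squares for test tumors. The pan-leukocyte, T cell, dendritic, fibroblast and endothelial lists are higher in both controls, and the luminal list lies near 40% in all 4 tumors.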

How the data were processed

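H3K27ac ChIP-seq was done on 4 tumors, and the input library of each tumor was not analysed here. Per the study's methods and the labels, reads were aligned to mm10 with BWA, and peaks were called by the authors with MACS2 in each tumor against its input at a q-value of 0.01. The deposited lists hold positions in base pairs, with no height, fold, p-value or depth. Neighboring intervals lay at least 201 bp apart.

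Groups were taken from the genotypes. Genes were those of GENCODE M21 (GRCm38, the same assembly as mm10), and the start was the 5′ end of the gene. Coverage was the percent of bases of a window in peaks, in the gene body plus 50 kb, or within 1 or 10 kb of the start. A peak was counted from 1 bp of overlap. Peaks that overlapped between tumors were joined into regions. Differences are test minus control, in percentage points. The interval arithmetic (Python 3.11.15, numpy 2.4.6) was tested on simulated data, and permutation tests used scipy 1.17.1.

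Promoter sequences came from the RefSeq table (GRCm38.p6) and other stretches from the GRCm38.p6 genome. The GAS, PU.1, GATA, AP-1 and RUNX motifs were searched on both strands, and no 2 matches overlapped. Paralogs were aligned with blastn 2.17.0. The members, the gene and marker lists, the motifs and the tests were chosen with earlier results of these data known. Genes outside the 9 were named where their peaks lay in a window, where the groups did not overlap (at most 8 of the pathway list, by size, besides Il3, Il5 and Il7, which were named in any case), or where their coverage was most similar. Jak2 and the Stat genes were named outside this rule, to say that their groups overlapped. Marker genes named singly were chosen after their values were seen.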

Additional observations from a re-analysis of the deposited data

How the results depend on the processing

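These lists carry no depth or peak height, and 2 tumors per group allow no test below p = 0.333 (exact permutation), so every order of the groups describes these 4 tumors only. The causes of the changes below were not tested. Counts without a tumor compare fewer tumors, so their orders are easier to meet. The share of all genes was not counted for those settings.

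The 4 genes with higher window coverage in both controls became 1 with peaks of at least 1 kb alone, and ranged from 3 to 4 with other flanks, the gene body alone, joined peaks or equal peak numbers, and from 4 to 6 without each tumor. The 2 genes higher in both test tumors became 0 with 10 kb flanks, with the gene body alone, with peaks of at least 1 kb and within 1 kb of the start, and ranged from 2 to 4 without each tumor (4 without control 2). The median window difference went from -0.148 to -0.754 percentage points with the gene body alone and to -10.5 within 1 kb of the start, and it was 0.0887 with peaks of at least 1 kb alone. It ranged from -0.271 (without control 1) to -0.0151 (without test 1) without each tumor. The window difference of Csf2ra had the opposite sign within 1 kb of the start, at -1.87 percentage points, but the groups overlapped there and it was 1.10 without test 1. The 3 genes with coverage within 1 kb of the start higher in both controls became 1 with peaks of at least 1 kb, and 3 to 6 without each tumor.

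A promoter peak in both controls and no test tumor was counted for 0 genes, for 1 with peaks of at least 1 kb (Csf2rb), and for 0 to 2 without each tumor (2 without test 1). The reverse stayed at 0 in every alternative tried, and other flanks do not touch either count. The 1 region in both controls and no test tumor became 0 with 10 kb flanks, with the gene body alone, with peaks within 1 kb joined and within 1 kb of the start, 2 with 100 kb flanks and with peaks of at least 1 kb, and 1 to 5 without each tumor (5 without test 1, 4 without control 1, 2 without control 2). Regions in both test tumors and no control, 0 in the main count, numbered 0 to 3 without each tumor (3 without test 2, 2 without control 2, 1 without test 1). The window within 1 kb of the start was added after the values were seen. No paired analysis was possible because the numbers of the tumors only name them and no test across genes was run.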
